A study of Mus musculus with 40 samples.

Results

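Aortas of mice given cyclosporin A (CsA) before angiotensin-II (Ang-II) were compared with aortas of WT mice given Ang-II alone, both after 24 h of Ang-II. The members are the 15399 genes of the table, and the comparison was set by the labels, with 3 libraries labelled CsA Ang-II 24h against 3 labelled WT Ang-II 24h, which make 6 of the 40 RNA-seq libraries of the series. All donors were C57BL/6J males, aged 10 to 12 weeks per the methods. The CsA group received CsA from a subcutaneous minipump for 5 days (5 mg/kg/day per the methods) and then Ang-II from a minipump at 1 µg/kg/min for 24 h, whereas the WT group carried no pump during those 5 days and then received the same Ang-II, so that CsA and the first pump cannot be told apart. In both groups only mice whose systolic pressure exceeded 130 mmHg under Ang-II were kept, and per the methods CsA mice in whose thymus CsA had not blocked the dephosphorylation of NFAT were removed. Each library was made from a pool of 3 aortas stripped of adventitia and perivascular tissue, so a value is an average over 3 mice and the spread is that between pools. The untreated and 2 h libraries of the same experiment (12 libraries, with and without CsA) entered the fit and served to place the 24 h difference in time.

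Ang-II is a vasoconstrictor peptide that acts on smooth muscle cells (SMC), endothelium, and fibroblasts through a receptor coupled to phospholipase C, and it raises cytosolic calcium. Calcium and calmodulin activate calcineurin (Cn), a phosphatase made of a catalytic and a regulatory subunit, which removes phosphate groups from the NFAT transcription factors so that they enter the nucleus. CsA binds cyclophilins inside the cell, and the complex blocks access of substrates to Cn. The comparison asks which transcripts of the Ang-II-treated aorta differ between mice given CsA by pump beforehand and mice without that pump. The paper names off-target effects of CsA as a possible source of differences between untreated CsA and WT aortas. Their part was not tested here.

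The signal is the authors' normalized read count of a gene, on a scale close to CPM. Libraries held 19567087, 28062435, and 27547446 assigned reads in WT and 20996209, 20387774, and 38900009 in CsA, and 1 read corresponded to a signal between 0.0256 and 0.0513. The standard deviation (SD) of a gene's log2 signal between replicates had a median of 0.173 in WT and 0.190 in CsA. The 8 smooth muscle markers were abundant in every library, with a summed signal of 24946 to 34732 in WT and 20115 to 29001 in CsA, and of the mitochondrial transcripts mt-Co1 alone averaged 35680 in WT and 53574 in CsA (adjusted p = 0.432), while the 2 T and B lymphocyte markers measured summed to between 0.657 and 2.20. CsA replicate 3 stood apart from the other CsA libraries on the second principal component (-29.9 against 24.2 and 24.4; 24.2% of the variance) and held the most fat RNA: the 10 adipocyte markers summed to 856 to 951 in WT and to 1346 to 4237 in CsA, with the highest value in CsA replicate 3. In a tissue extract, fewer cells of a type and less RNA per cell cannot be told apart.

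After 24 h of Ang-II, 766 of the 15399 genes (4.97%) differed between CsA and WT at a Benjamini-Hochberg adjusted p under 0.05 in limma, 281 higher (1.82%) and 485 lower (3.15%) in CsA. The largest differences were those of Arg1, Ptgs2, and Fosl1 among the lower genes and of Acaa1b and Ces1d among the higher genes. Differences of more than 2-fold numbered 117, of which 41 were higher and 76 lower. The 3 CsA libraries all lay above the 3 WT libraries for 276 of the 281 higher genes, against 13.3% of all genes. They all lay below them for 480 of the 485 lower genes, against 12.8% of all genes. The calls were made on these same values, so the separation largely follows from the call and is no independent support for it. The median log2 difference over all genes was 0.012, on values that the authors had scaled for library size.

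How many genes passed the test depended on single libraries and on the 12 other libraries that share the estimate of the spread. Without WT replicate 2 the count was 75, without CsA replicate 2 it was 241, without WT replicate 1 it was 353, and without CsA replicate 1 it was 503. With the 6 libraries alone, limma called 0 genes, with 2984 at an unadjusted p under 0.05, whereas over the 18 libraries 3520 genes had an unadjusted p under 0.05, and edgeR and DESeq2 on the recovered reads called 756 and 1602 genes. None of the 766 called genes turned its direction under any of these alternatives, which reuse the same libraries. Most called genes had groups without overlap, so leaving out 1 library could not turn their direction. Among 101 called genes named in these paragraphs, 25 kept their call with each of the 6 libraries left out in turn.

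**Figure D1:**
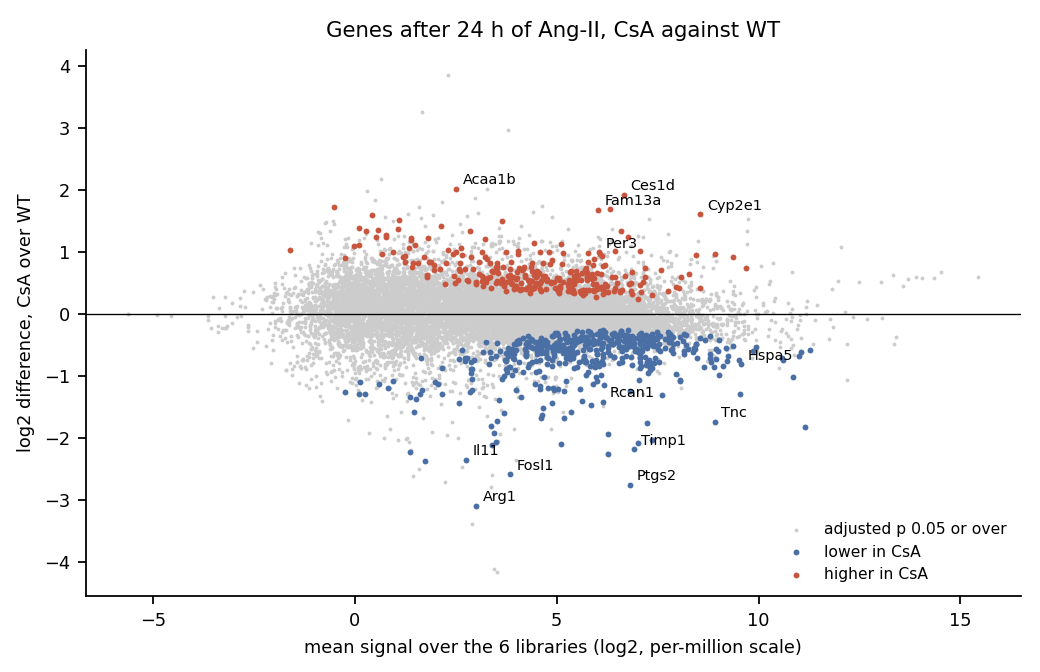
Each point is a gene, with its mean signal over the 6 libraries (log2) on the horizontal axis and its log2 difference, CsA over WT after 24 h of Ang-II, on the vertical axis. The 485 lower genes reach further from 0 than the 281 higher ones, with Arg1 at -3.09 and Acaa1b at 2.02 as the outermost labelled points.

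The Cn pathway itself differed at 1 gene, Rcan1, whose product binds and regulates Cn and whose short transcript is a classical NFAT target. Rcan1 measured 107, 132, and 74.7 in WT and 42.8, 32.95, and 38.5 in CsA. Every CsA library lay below every WT library, and the difference (log2 difference -1.41, SE 0.21, adjusted p = 0.00371) held with each library left out. The difference was -0.14 without Ang-II (adjusted p = 0.672) and -1.16 after 2 h (adjusted p = 0.0164). From untreated to 24 h, the log2 change under Ang-II was 1.44 in WT and 0.17 in CsA, 2 values that share the untreated and 24 h libraries with the differences above. In limma, 0 of 4 Cn subunits, 0 of 5 NFAT factors, and 0 of 12 cyclophilins passed the test, with log2 differences between -0.34 and 0.28. Of these 21 genes, 1 cyclophilin had an unadjusted p under 0.05, and edgeR called 0 and DESeq2 1. Ppp3ca, the main catalytic subunit, measured 68.4, 64.5, and 73.5 in WT and 63.9, 72.1, and 76.4 in CsA, and Ppp3r1, the regulatory subunit, 87.5, 87.7, and 80.2 in WT and 81.9, 79.9, and 75.3 in CsA. For both genes the groups overlapped (log2 differences 0.039, 95% interval -0.17 to 0.25, and -0.11, 95% interval -0.32 to 0.11). Rcan2, a related regulator, measured 170.0, 143, and 164 in WT and 215, 277, and 103 in CsA and overlapped too. Nfatc2 was 0.28 higher with no overlap but did not pass the test (adjusted p = 0.273), and its difference without Ang-II was 0.69 (adjusted p = 0.00496).

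Cytokines were among the genes that fell most. Of 22 chemokines and cytokines measured, 6 were lower in CsA (27.3%, against 3.15% of all genes) and 0 higher, with a median log2 difference of -0.62. Il11, a cytokine of the interleukin-6 family with fibrogenic activity, measured 6.23, 24.2, and 5.75 in WT and 1.55, 1.74, and 1.22 in CsA. WT replicate 2 was the highest, yet the difference (log2 difference -2.35, SE 0.41, adjusted p = 0.00695) remained past the test without it and with each other library left out. Il6, the archetype of that family and an inducer of the acute phase, measured 6.33, 5.55, and 1.69 in WT and 0.0238, 0.328, and 1.55 in CsA, with no read in CsA replicate 1. Lif, another member, measured 4.28, 5.14, and 2.33 in WT and 1.26, 0.682, and 1.75 in CsA, so that its lowest WT library lay only just above the highest CsA library. The log2 differences were -2.22 for Il6 (SE 0.47, adjusted p = 0.0159) and -1.34 for Lif (SE 0.33, adjusted p = 0.0301). Cxcl5, a neutrophil attractant, measured 4.64, 10.5, and 2.55 in WT and 0.0238, 0.581, and 1.702 in CsA, again with no read in CsA replicate 1. Il33, an alarmin of stromal cells, measured 58.1, 100.2, and 56.4 in WT and 23.998, 19.5, and 36.9 in CsA, and Cxcl12, which retains leukocytes and progenitor cells, measured 183, 314, and 161 in WT and 103, 110.4, and 154 in CsA. The CsA libraries were below the WT libraries for all of these, by 2.37 for Cxcl5 (adjusted p = 0.014), 1.40 for Il33 (adjusted p = 0.0113), and 0.80 for Cxcl12 (adjusted p = 0.0423) on the log2 scale. Il6, Lif, and Cxcl12 lost their calls without WT replicate 1 (adjusted p 0.0621 to 0.0945), and Il6, Lif, Cxcl5, Il33, and Cxcl12 without WT replicate 2 (adjusted p 0.0828 to 0.21). Il6, Lif, and Cxcl12 also lost their calls without CsA replicate 1 (adjusted p 0.0541 to 0.113), and Il6, Lif, Il33, and Cxcl12 without CsA replicate 2 (adjusted p 0.0551 to 0.116).

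Ptgs2 and Arg1, enzymes of inflamed tissue, showed the largest gaps. Ptgs2 (cyclooxygenase-2), which commits arachidonic acid to prostanoids, measured 221, 300.1, and 75.2 in WT and 32.005, 32.6, and 14.7 in CsA. All CsA values lay under the lowest WT value, and the difference (log2 difference -2.76, SE 0.44, adjusted p = 0.00475) remained past the test with each library left out. Arg1 (arginase 1), which competes with nitric oxide synthases for arginine and marks alternatively activated macrophages, measured 3.46, 25.8, and 14.9 in WT and 0.357, 0.379, and 2.93 in CsA, and CsA replicate 3 came close to WT replicate 1. Its log2 difference was -3.09 (SE 0.60, adjusted p = 0.011), and the call was lost without WT replicate 2 (adjusted p = 0.0813) and without CsA replicate 2 (adjusted p = 0.0516). DESeq2 did not call Arg1 (adjusted p = 0.153). Of 15 prostanoid genes, Ptger3, a prostaglandin E2 receptor, was the single one that was higher (6.67%, against 1.82% of all genes). It measured 5.26, 6.497, and 7.07 in WT and 11.6, 11.7, and 13.5 in CsA (log2 difference 0.92, SE 0.14, adjusted p = 0.00371), and it held with each library left out. Of 16 NF-kB targets and inhibitors, 1 was lower (6.25%, against 3.15% of all genes), the early response gene Ier3. Ier3 measured 87.8, 77.4, and 48.8 in WT and 28.001, 51.5, and 32.8 in CsA, so that CsA replicate 2 overlapped the lowest WT library (log2 difference -0.93, adjusted p = 0.043). The Ier3 call depended on single libraries: the adjusted p was 0.145 without WT replicate 1, 0.187 without WT replicate 2, 0.122 without CsA replicate 1, and 0.106 without CsA replicate 3. Macrophage markers summed to 390 to 562 in WT and 335 to 535 in CsA, and 1 of 12 was called lower (8.33%, against 3.15% of all genes). It was Mrc1, the mannose receptor, at 48.9, 73.9, and 66.4 in WT and 38.4, 38.1, and 39.5 in CsA (log2 difference -0.68, adjusted p = 0.0318). The Mrc1 call held without WT replicate 1 and was lost without each of the other 5 libraries (adjusted p 0.0604 to 0.18). Neutrophil markers summed to 4.21 to 10.6 in WT and 4.91 to 87.8 in CsA. The part of these cells in the cytokine results was not tested.

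**Figure D2:**
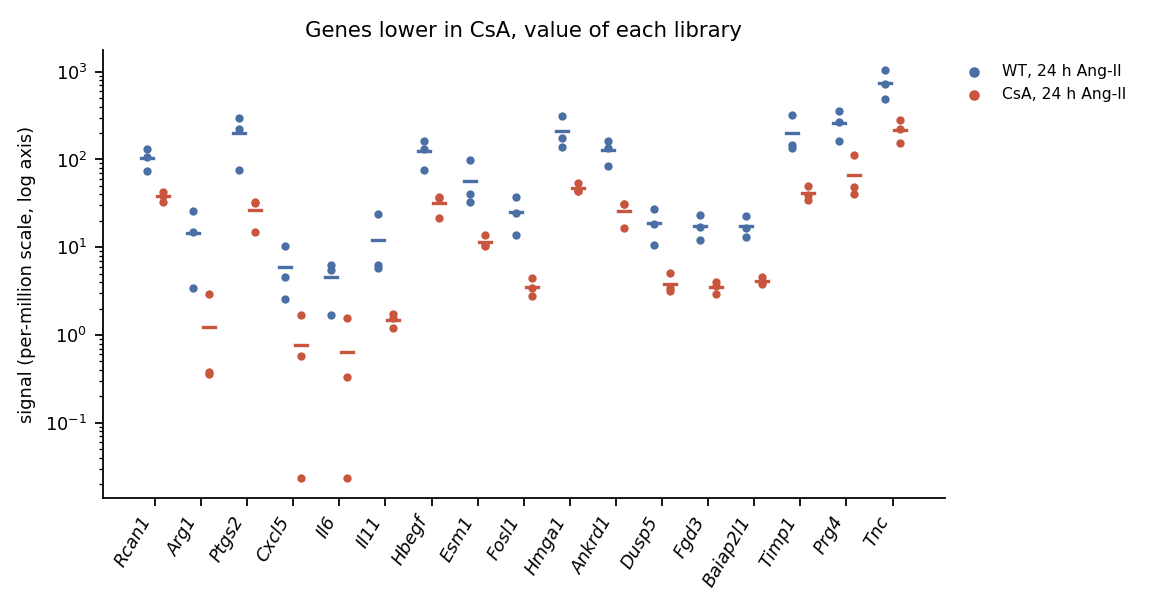
Signal of 17 genes that were lower in CsA, on a log axis, with 1 point per library, a bar at the group mean, WT in blue, and CsA in red. For each gene the 3 CsA libraries lie below the 3 WT libraries, which the naming rule required of most of them. Cxcl5 and Il6 reach 0 reads in CsA replicate 1.

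Several of the largest lower differences were in genes of growth signalling, chromatin, and cell shape. Fosl1, the AP-1 subunit Fra-1, measured 24.6, 37.2, and 13.9 in WT and 4.41, 2.75, and 3.47 in CsA, which put the CsA libraries at a narrow, low level. Its log2 difference was -2.58 (SE 0.45, adjusted p = 0.00693), and it was the sole call among 8 AP-1 genes (12.5%, against 3.15% of all genes). All 8 had negative differences, with a median of -0.51. Without Ang-II the median of these 8 was -0.63, with 2 called lower, against 10.1% of all genes. After 2 h it was -1.12, with 3 called lower, against 0.981% of all genes. Hbegf, a membrane-anchored ligand of the epidermal growth factor receptor, measured 133, 164, and 75.1 in WT and 36.4, 36.9, and 21.3 in CsA. Dusp5, a nuclear phosphatase that switches off the kinase ERK, measured 18.2, 27.4, and 10.7 in WT and 5.03, 3.16, and 3.39 in CsA. For both, the groups were apart and the call held with each library left out (log2 difference -1.93, SE 0.32, adjusted p = 0.0051 for Hbegf; log2 difference -2.07, SE 0.33, adjusted p = 0.00475 for Dusp5). Hmga1, an architectural chromatin protein of proliferating cells, measured 176, 315, and 140.1 in WT and 53.7, 43.3, and 43.2 in CsA, with a narrow CsA group and the smallest adjusted p of these genes (log2 difference -2.08, SE 0.24, adjusted p = 0.0021), and its call held with each library left out. Reads of Hmga1 may be shared with related copies in the genome, which the authors' counting could split. Fgd3, an activator of the GTPase Cdc42, measured 17.1, 23.2, and 12.02 in WT and 4.03, 3.61, and 2.96 in CsA, and Baiap2l1, which links such GTPases to the membrane and actin, measured 16.6, 22.9, and 12.98 in WT and 4.599, 3.81, and 4.06 in CsA. Esm1, a proteoglycan secreted by endothelium, measured 40.5, 97.7, and 33.1 in WT and 10.4, 10.6, and 13.9 in CsA. These 3 fell by 2.11, 1.92, and 2.10 on the log2 scale, and each call held with each library left out. Ankrd1, a nuclear and sarcomeric protein induced by stretch, measured 164, 135, and 83.6 in WT and 30.8, 30.7, and 16.7 in CsA (log2 difference -2.27, adjusted p = 0.0114), a call that was lost without WT replicate 2 (adjusted p = 0.071). Among 13 factors of the Egr, Nr4a, and Klf families, Nr4a2, a nuclear receptor of the immediate early response, was lower (17.8, 19.1, and 12.4 in WT and 10.8, 11.3, and 8.84 in CsA; log2 difference -0.63, adjusted p = 0.029). Klf15, a factor that restrains vascular inflammation and follows glucocorticoids, was higher (49.1, 37.2, and 51.01 in WT and 72.7, 76.8, and 65.7 in CsA; log2 difference 0.65, SE 0.11, adjusted p = 0.00696) and held with each library left out. Of the 13 factors, 7.69% were thus lower and 7.69% higher, against 3.15% and 1.82% of all genes. Of 19 genes of G protein signalling and MAP kinase feedback, Dusp5 and Spred1, an inhibitor of Ras signalling, were lower (10.5%, against 3.15% of all genes). Spred1 measured 50.8, 59.8, and 52.8 in WT and 41.7, 42.9, and 41.9 in CsA (log2 difference -0.36, adjusted p = 0.0343). Nr4a2 and Spred1 lost their calls without WT replicate 1 (adjusted p 0.0505 to 0.0986), and Fosl1, Nr4a2, and Spred1 without WT replicate 2 (adjusted p 0.0552 to 0.188). Nr4a2 and Spred1 also lost their calls without CsA replicate 1 (adjusted p 0.0529 to 0.0772), and Nr4a2 and Spred1 without CsA replicate 2 (adjusted p 0.056 to 0.0821). Nr4a2 and Spred1 also lost their calls without CsA replicate 3 (adjusted p 0.0757 to 0.092). Of 26 cell cycle genes, 1 was lower, a share of 3.85% that is near the 3.15% of all genes. It was Mcm6, a subunit of the replication helicase (99.4, 94.1, and 69.9 in WT and 59.5, 51.8, and 43.4 in CsA; log2 difference -0.76, adjusted p = 0.0233). The helicase gene was sensitive to the choice of libraries: the adjusted p was 0.0847 without WT replicate 1, 0.129 without WT replicate 2, 0.0692 without CsA replicate 2, and 0.0748 without CsA replicate 3.

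Matrix genes were lower in several classes. In CsA, 4 of 16 collagens (25.0%), 3 of 19 genes of elastic fibres and cross-linking (15.8%), and 2 of 13 matricellular proteins (15.4%) were lower, against 3.15% of all genes, and none was higher, with median log2 differences of -0.43, -0.40, and -0.55. Without Ang-II these lists already held 10, 11, and 8 lower genes, against 10.1% of all genes, with larger median differences of -0.57, -0.54, and -0.65. Tnc (tenascin C), a glycoprotein deposited during wall remodelling, measured 721, 1032, and 486 in WT and 278, 224, and 156 in CsA, and Spp1 (osteopontin) measured 19.98, 58.4, and 34.9 in WT and 7.84, 9.92, and 14.7 in CsA. The groups were apart for both (log2 difference -1.74, SE 0.25, adjusted p = 0.00345 for Tnc; log2 difference -1.67, SE 0.30, adjusted p = 0.00778 for Spp1). Timp1, an inhibitor of matrix metalloproteinases, measured 134, 324, and 147 in WT and 34.1, 38.9, and 50.04 in CsA, with WT replicate 2 above the rest. Its difference (log2 difference -2.18, SE 0.29, adjusted p = 0.00291) held with each library left out, as did that of Tnc. Lox, Loxl2, and Loxl4 encode lysyl oxidases, which cross-link collagen and elastin. Lox measured 763, 761, and 549 in WT and 362, 387, and 293 in CsA. Loxl2 measured 141, 107, and 105 in WT and 71.8, 66.6, and 63.7 in CsA, and Loxl4 measured 24.6, 33.9, and 17.1 in WT and 10.5, 11.04, and 6.85 in CsA. For all 3 genes each CsA library was below each WT library, with log2 differences of -0.98, -0.79, and -1.34 (adjusted p = 0.0213, 0.00312, and 0.0113), and Loxl2 alone among them held with each library left out.

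The 4 collagens were Col3a1, Col5a1, Col5a2, and Col6a3, fibrillar or microfibrillar chains of the media and adventitia. Col3a1 measured 2331, 2455, and 2772 in WT and 1774, 1669.8, and 1329 in CsA. Col5a1 measured 617, 571, and 562 in WT and 489, 391, and 325 in CsA, and Col6a3 measured 517, 629.8, and 465 in WT and 425, 331, and 279 in CsA. Their log2 differences lay between -0.68 and -0.56, each CsA library was below each WT library, and CsA replicate 3 was the lowest for all 4. Col3a1, Col5a1, and Col6a3 were also lower in CsA without Ang-II, by 0.90, 0.85, and 0.75 on the log2 scale (adjusted p = 0.00176, 0.000723, and 0.00439). Lox, Col3a1, Col5a1, Col5a2, and Col6a3 lost their calls without WT replicate 1 (adjusted p 0.05 to 0.103), and Spp1, Lox, Loxl4, Col3a1, Col5a1, Col5a2, and Col6a3 without WT replicate 2 (adjusted p 0.0537 to 0.176). Col3a1 and Col5a2 also lost their calls without WT replicate 3 (adjusted p 0.054 to 0.0552), and Col3a1, Col5a1, Col5a2, and Col6a3 without CsA replicate 2 (adjusted p 0.0651 to 0.0883). Lox, Col3a1, Col5a1, Col5a2, and Col6a3 also lost their calls without CsA replicate 3 (adjusted p 0.0585 to 0.132). Fibroblast markers overlapped, at 3092 to 3944 in WT and 2841 to 3723 in CsA.

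The hyaluronan genes split. Has1, a hyaluronan synthase, measured 15.5, 21.5, and 12.1 in WT and 2.598, 4.27, and 6.49 in CsA, and Cd44, the main hyaluronan receptor, measured 239, 324, and 142 in WT and 79.05, 65.8, and 54.1 in CsA. Both were lower (log2 difference -1.81, SE 0.29, adjusted p = 0.00475; log2 difference -1.75, SE 0.24, adjusted p = 0.00291) and held with each library left out. Hyal1, which degrades hyaluronan in lysosomes, was higher at 56.3, 40.4, and 66.1 in WT and 78.999, 88.6, and 82.4 in CsA (log2 difference 0.64, SE 0.14, adjusted p = 0.0173). The remaining 7 of the 10 hyaluronan genes did not pass. Thus 2 of the 10 were lower and 1 was higher, against 3.15% and 1.82% of all genes. Of 19 matrix proteases and inhibitors, Timp1, Mmp3 (stromelysin 1), and Mmp14 (a membrane-bound activator of other metalloproteinases) were lower and Timp4 was higher. The shares were 15.8% lower and 5.26% higher, against 3.15% and 1.82% of all genes. Mmp3 measured 147, 189.8, and 187 in WT and 79.5, 57.6, and 125 in CsA. Mmp14 measured 95.01, 104, and 83.3 in WT and 72.3, 69.3, and 63.8 in CsA, and Timp4, an inhibitor abundant in cardiovascular tissue and fat, measured 40.95, 25.8, and 41.8 in WT and 50.2, 79.8, and 87.7 in CsA. The log2 differences were -1.06, -0.45, and 0.99 (adjusted p = 0.0342, 0.0153, and 0.0217). Prg4 (lubricin), a secreted proteoglycan, measured 162, 358, and 268 in WT and 40.4, 48.1, and 114 in CsA, with CsA replicate 3 nearest to WT (log2 difference -2.04, adjusted p = 0.013). Without Ang-II, Prg4 was higher in CsA, by 1.96 on the log2 scale (adjusted p = 0.00409). Mmp3 lost its call without WT replicate 1 (adjusted p = 0.0562), and Hyal1, Mmp3, Mmp14, Timp4, and Prg4 without WT replicate 2 (adjusted p 0.0887 to 0.159). Mmp3 also lost its call without WT replicate 3 (adjusted p = 0.0627), and Mmp3 without CsA replicate 1 (adjusted p = 0.0782). Hyal1, Mmp3, Timp4, and Prg4 also lost their calls without CsA replicate 2 (adjusted p 0.0561 to 0.122), and Timp4 without CsA replicate 3 (adjusted p = 0.0681).

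Proteins that fold and quality-check secreted proteins in the endoplasmic reticulum (ER) were the list with the highest share of calls. Of 22 genes of the unfolded protein and integrated stress response, 13 were lower in CsA (59.1%, against 3.15% of all genes), 0 were higher, and the median log2 difference was -0.42. The unfolded protein response raises such chaperones through the factors ATF6, XBP1, and ATF4 when clients accumulate in the ER. Hspa5 (BiP), the master chaperone of the ER, measured 844, 1054, and 1013 in WT and 591, 562, and 503 in CsA. Its highest CsA value was well under its lowest WT value (log2 difference -0.81, SE 0.14, adjusted p = 0.0053). Pdia6, a disulfide isomerase bound to BiP, measured 171, 248, and 225 in WT and 129, 131, and 129 in CsA (log2 difference -0.70, SE 0.11, adjusted p = 0.00475), and its 3 CsA libraries were nearly equal. Both calls held with each library left out.

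The other called members ranged from -1.23 to -0.39 on the log2 scale. Sdf2l1, a cofactor of BiP, had the largest difference of the list at 13.7, 25.4, and 29.003 in WT and 8.36, 7.25, and 11.7 in CsA (log2 difference -1.23, adjusted p = 0.0135). Creld2 measured 32.3, 53.9, and 56.99 in WT and 27.9, 27.8, and 24.1 in CsA, and Manf, a secreted stress protein, measured 97.2, 144, and 134 in WT and 74.3, 74.3, and 68.4 in CsA. Hyou1, which exchanges nucleotide on BiP, measured 123, 195, and 179 in WT and 100.4, 102, and 95.5 in CsA, and Hsp90b1 (Grp94) measured 524, 671, and 670.5 in WT and 436, 416, and 370.5 in CsA. These 4 were lower by 0.79, 0.77, 0.71, and 0.60 on the log2 scale (adjusted p = 0.0121, 0.00836, 0.00836, and 0.0157), and in each of them WT replicate 1 was the lowest WT library, still above all CsA libraries. The lectin chaperones Calr and Canx, the isomerases Pdia3 and Pdia4, and the cochaperones Dnajb11 and Dnajc3 were lower by 0.39 to 0.54. Pdia4 overlapped between groups at a single pair of values, 82.3 in WT replicate 1 and 82.6 in CsA replicate 3. Without WT replicate 2, Hspa5 and Pdia6 were the 2 genes of the list that were still called, and without CsA replicate 2 there were 7, while the median of the list stayed between -0.49 and -0.37 with each library left out. Dnajc3 lost its call without WT replicate 1 (adjusted p = 0.076), and the 11 members other than Hspa5 and Pdia6 without WT replicate 2 (adjusted p 0.0614 to 0.207). Pdia3, Pdia4, Calr, Dnajb11, and Dnajc3 also lost their calls without WT replicate 3 (adjusted p 0.0593 to 0.0971), and Pdia4, Calr, Dnajb11, and Dnajc3 without CsA replicate 1 (adjusted p 0.0596 to 0.0792). Pdia3, Pdia4, Calr, Dnajb11, Dnajc3, and Sdf2l1 also lost their calls without CsA replicate 2 (adjusted p 0.0618 to 0.109), and Pdia3, Calr, Dnajb11, and Dnajc3 without CsA replicate 3 (adjusted p 0.0583 to 0.0999).

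The ER stress response element, CCAAT and CCACG spaced by any 9 bases, is the sequence through which ATF6 and the factor NF-Y act on these promoters, and it was searched on both strands in the 250 bases before the RefSeq gene start (GRCm38.p6). It was found in 37 of 32851 promoters (0.113%) and in 16 of the 11070 measured genes with a promoter entry (0.145%). Among the 20 list members with an entry, 7 held it (Hspa5, Hsp90b1, Pdia6, Calr, Canx, Dnajc3, and Creld2). All 7 were called lower, as were 4 of the 13 members without a match, against 3.15% of all genes. Of the 9 measured genes with a match outside the list, 0 were called lower and Acacb was called higher. Over all 16 measured genes with a match, 11 differences were negative, with a median of -0.32. Without WT replicate 2, Hspa5 and Pdia6 alone among the 7 kept their calls. The promoters of 4 lower genes are printed 5′ to 3′ in the direction of the gene to show the element, with each match in capitals. They lie at chr2:34771840-34772089 (+ strand) for Hspa5, chr10:86705445-86705694 (- strand) for Hsp90b1, chr12:17266339-17266588 (+ strand) for Pdia6, and chr15:88819396-88819645 (+ strand) for Creld2. Hsp90b1 holds 2 matches, 1 in each orientation, and the match of Creld2 is on the opposite strand.
Hspa5: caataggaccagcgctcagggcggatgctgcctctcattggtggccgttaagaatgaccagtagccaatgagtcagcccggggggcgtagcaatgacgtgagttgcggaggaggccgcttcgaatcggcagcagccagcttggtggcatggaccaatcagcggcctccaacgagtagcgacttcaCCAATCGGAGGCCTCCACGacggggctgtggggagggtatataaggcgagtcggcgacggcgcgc
Hsp90b1: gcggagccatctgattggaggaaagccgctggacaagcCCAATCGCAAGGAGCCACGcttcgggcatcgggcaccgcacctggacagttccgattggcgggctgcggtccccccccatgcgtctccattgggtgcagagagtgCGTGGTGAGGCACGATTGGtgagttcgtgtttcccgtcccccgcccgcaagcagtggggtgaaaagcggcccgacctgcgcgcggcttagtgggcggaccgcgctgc
Pdia6: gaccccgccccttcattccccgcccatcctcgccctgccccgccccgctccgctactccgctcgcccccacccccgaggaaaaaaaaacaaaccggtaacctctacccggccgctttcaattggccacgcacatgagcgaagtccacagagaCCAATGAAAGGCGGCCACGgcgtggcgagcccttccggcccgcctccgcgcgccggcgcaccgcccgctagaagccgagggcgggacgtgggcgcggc
Creld2: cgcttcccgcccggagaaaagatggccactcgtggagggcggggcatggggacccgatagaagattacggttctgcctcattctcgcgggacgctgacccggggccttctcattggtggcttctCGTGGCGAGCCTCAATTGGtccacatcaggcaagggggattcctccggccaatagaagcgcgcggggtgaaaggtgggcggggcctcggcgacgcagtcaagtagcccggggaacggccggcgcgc
A match is a string of letters in a window and shows neither binding nor the use of the site in these aortas.

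Calls were also found among heat shock proteins and chaperones outside the ER. Of 16 such genes, 4 were lower (25.0%, against 3.15% of all genes), 0 were higher, and all 16 differences were negative, with a median of -0.57. Hspa8, the constitutive Hsp70, measured 2479, 3102, and 1909 in WT and 1254, 1419, and 1002 in CsA. Cryab (alpha B-crystallin), a small heat shock protein of muscle, measured 363, 415, and 300.4 in WT and 190.2, 188, and 131 in CsA. The pair of cytosolic Hsp90 genes measured 802, 786, and 646 in WT and 449.9, 502, and 374 in CsA for Hsp90aa1 and 1095, 1297, and 977 in WT and 767, 771, and 685 in CsA for Hsp90ab1. No CsA library reached a WT library in any of the 4, and the log2 differences were -1.01, -1.09, -0.76, and -0.59 (adjusted p = 0.0185, 0.00891, 0.024, and 0.0333). Hspa8, Hsp90aa1, and Hsp90ab1 lost their calls without WT replicate 1 (adjusted p 0.0547 to 0.0796), and Hspa8, Cryab, Hsp90aa1, and Hsp90ab1 without WT replicate 2 (adjusted p 0.067 to 0.181). Hsp90aa1 and Hsp90ab1 also lost their calls without CsA replicate 1 (adjusted p 0.0518 to 0.0604), and Hsp90ab1 without CsA replicate 2 (adjusted p = 0.0782). Hspa8, Hsp90aa1, and Hsp90ab1 also lost their calls without CsA replicate 3 (adjusted p 0.0564 to 0.0886).

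**Figure D3:**
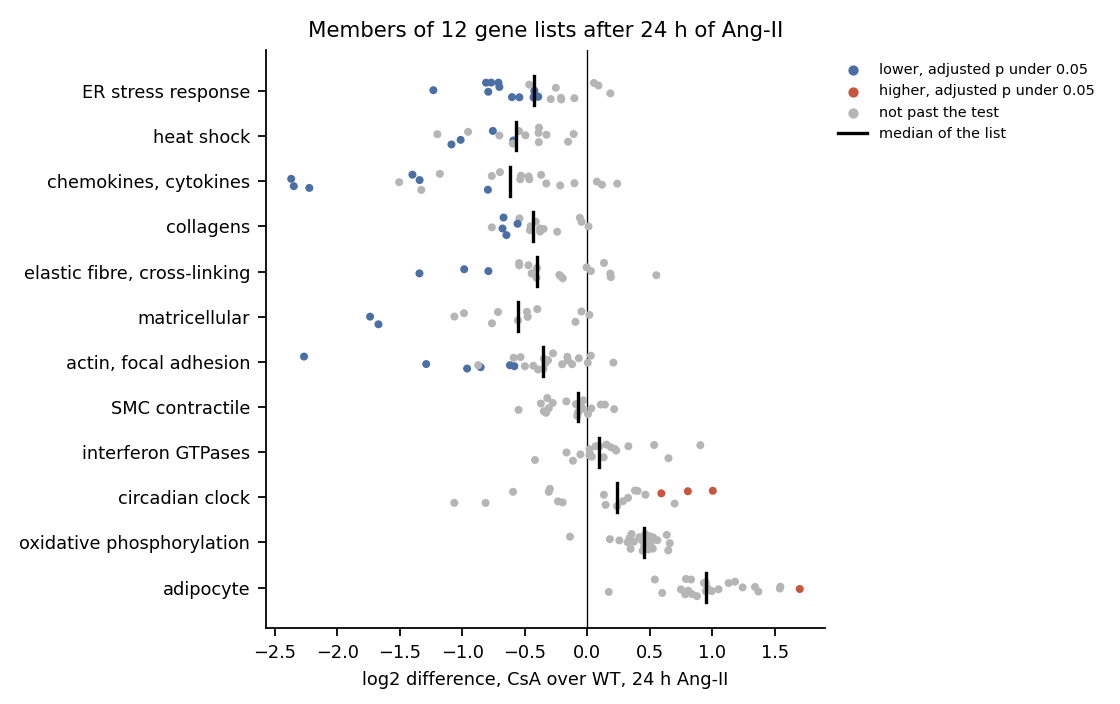
Log2 difference between CsA and WT after 24 h of Ang-II for the members of 12 gene lists, 1 point per gene, colored where the adjusted p is under 0.05, with the list median as a black bar. The ER stress response holds 13 lower genes of 22. The SMC contractile, interferon GTPase, and oxidative phosphorylation lists hold none that passed, against 4.97% of all genes.

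At 24 h the actin cytoskeleton held more calls than the contractile apparatus. In CsA, 6 of 25 genes of the actin cytoskeleton and focal adhesion (24.0%, against 3.15% of all genes) were lower, with a median log2 difference of -0.35. Of 20 smooth muscle contractile genes, 0 passed in limma, edgeR, or DESeq2 (median -0.08, with 1 at an unadjusted p under 0.05). In a list of 20 genes, a count of 0 is near the 4.97% of all genes that limma called. Without Ang-II, 12 of the 25 actin genes were already lower and 0 higher, with a larger median difference of -0.55. Of the 20 contractile genes, 18 were lower and 1 higher without Ang-II (median -0.68), against 10.1% lower and 12.5% higher among all genes. Besides Ankrd1, the genes lower at 24 h included the tropomyosin Tpm4, which lies along actin filaments, Flnc, which cross-links them, the cytoplasmic actin Actb, and the integrin subunit Itgb1. Striated muscle markers summed to 139 to 499 in WT and 82.8 to 117 in CsA, with none called, and their part was not tested. Tpm4 measured 589, 715, and 529 in WT and 352, 344, and 311 in CsA, with every CsA library below every WT library, and the call held with each library left out (log2 difference -0.85, SE 0.14, adjusted p = 0.00475). Flnc measured 1350.0, 1201, and 663 in WT and 519.8, 475, and 298 in CsA, with a wide WT group (log2 difference -1.29, adjusted p = 0.0304). Actb measured 3147, 3175, and 2579.6 in WT and 1888, 2103, and 1928 in CsA, and Itgb1 measured 2796, 2633, and 2200.0 in WT and 1815, 1895, and 1299.5 in CsA, each with no overlap (log2 differences -0.58 and -0.62, adjusted p = 0.0492 and 0.0421). Acta2, the smooth muscle actin and the most abundant contractile gene named here, measured 15162, 10376, and 10996 in WT and 10610.2, 11140.4, and 6759.6 in CsA. Its groups overlapped, with a log2 difference of -0.37 (95% interval -0.94 to 0.20, adjusted p = 0.437). Flnc, Actb, and Itgb1 lost their calls without WT replicate 1 (adjusted p 0.111 to 0.137), and Flnc, Actb, and Itgb1 without WT replicate 2 (adjusted p 0.156 to 0.201). Actb and Itgb1 also lost their calls without CsA replicate 1 (adjusted p 0.0551 to 0.108), and Flnc, Actb, and Itgb1 without CsA replicate 2 (adjusted p 0.0588 to 0.0886). Flnc, Actb, and Itgb1 also lost their calls without CsA replicate 3 (adjusted p 0.099 to 0.131). Of 22 calcium handling genes, 1 was lower, a share of 4.55% that is near the 3.15% of all genes. It was Cacnb2, a regulatory subunit of the L-type calcium channel (27.4, 21.1, and 21.4 in WT and 14.9, 14.9, and 13.3 in CsA; log2 difference -0.67, adjusted p = 0.0173), and it lost the call without WT replicates 1 or 2 or CsA replicate 2 (adjusted p 0.0516 to 0.071). Of 10 genes of the angiotensin system, 1 was lower and 0 were higher, against 3.15% and 1.82% of all genes. Differences were positive for 7 and negative for 3 of them, with a median of 0.24. The lower gene was Enpep (aminopeptidase A), which cleaves Ang-II to angiotensin III. It measured 15.3, 13.6, and 13.4 in WT and 9.22, 8.36, and 8.13 in CsA (log2 difference -0.68, SE 0.10, adjusted p = 0.00371). Its values were tight in both groups, the call held with each library left out, and the difference without Ang-II was of similar size (-0.64, adjusted p = 0.00107).

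The named genes that were higher in CsA included enzymes of lipid, amino acid, and xenobiotic metabolism. Ces1d and Ces1f, carboxylesterases that hydrolyse lipid esters, measured 46.03, 44.5, and 30.997 in WT and 135, 113, and 238 in CsA for Ces1d and 6.08, 6.87, and 5.18 in WT and 13.2, 14.8, and 29.2 in CsA for Ces1f. Cyp2e1, a cytochrome P450, measured 184, 159.6, and 174 in WT and 311, 505, and 931 in CsA. Cidea, a lipid droplet protein, measured 27.2, 27.5, and 47.6 in WT and 80.7, 69.2, and 225 in CsA, and Acacb, the mitochondrial acetyl-CoA carboxylase, measured 45.98, 51.5, and 55.1 in WT and 96.3, 97.4, and 228 in CsA. In all 5 the CsA libraries were above the WT libraries, which the rule for naming them required. CsA replicate 3 was by far the highest in each. The log2 differences were 1.93, 1.50, 1.61, 1.70, and 1.34 (adjusted p = 0.026, 0.0473, 0.0341, 0.0458, and 0.0389). Acaa1b, a peroxisomal thiolase, had the largest called difference in this direction, 2.02 (SE 0.56, adjusted p = 0.0476), from 0.641, 1.75, and 2.87 in WT and 5.46, 4.57, and 18.7 in CsA. Reads of Acaa1b, Ces1d, and Ces1f can be shared with near copies of these genes, so their split is uncertain. The same shape, with CsA replicate 3 highest, was found for Fam13a (log2 difference 1.68), Dpyd, which starts pyrimidine breakdown (1.34), Fmo1, a flavin monooxygenase (1.25), Gpt, alanine aminotransferase (1.22), Prodh, proline dehydrogenase (1.15), Negr1 (1.42), and the predicted gene Gm17251 (1.22). Of the other two, Aox1 was highest in CsA replicate 3 by a small margin and Smim5 was lowest there. Aox1, aldehyde oxidase, measured 20.8, 19.5, and 22.9 in WT and 40.5, 47.1, and 54.2 in CsA (log2 difference 1.14, SE 0.15, adjusted p = 0.00291), was close to equal between groups without Ang-II (0.14, adjusted p = 0.542), and held with each library left out. Smim5 measured 3.67, 2.46, and 5.72 in WT and 8.03, 9.82, and 7.64 in CsA, higher in CsA by 1.07 (adjusted p = 0.022) but lower by 1.07 without Ang-II (adjusted p = 0.00615). Acaa1b, Ces1d, Cidea, Cyp2e1, Ces1f, Negr1, Dpyd, Acacb, Gm17251, Gpt, and Smim5 lost their calls without WT replicate 1 (adjusted p 0.0578 to 0.167), and all 14 of the higher genes named here other than Aox1 without WT replicate 2 (adjusted p 0.0614 to 0.19). Ces1d, Cyp2e1, Ces1f, Dpyd, and Gpt also lost their calls without WT replicate 3 (adjusted p 0.0521 to 0.0847), and Acaa1b, Ces1d, Cidea, Ces1f, and Gpt without CsA replicate 1 (adjusted p 0.0503 to 0.0599). Acaa1b, Ces1d, Cidea, Cyp2e1, Ces1f, Dpyd, Acacb, Gpt, and Smim5 also lost their calls without CsA replicate 2 (adjusted p 0.0512 to 0.0894), and Acaa1b, Ces1d, Cidea, Cyp2e1, Ces1f, Negr1, Dpyd, Acacb, and Gpt without CsA replicate 3 (adjusted p 0.0711 to 0.164).

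Fat markers moved with these enzymes. Adipoq (adiponectin), a hormone made by fat cells, measured 84.3, 79.1, and 74.05 in WT and 127, 164, and 318 in CsA. Plin1, which coats their lipid droplets, measured 97.6, 92.7, and 97.2 in WT and 123, 144, and 287 in CsA, and Ucp1, the uncoupling protein of brown fat, 83.8, 93.1, and 150.0 in WT and 139, 196, and 637 in CsA. CsA replicate 3 was again the highest, and the log2 differences of 1.24, 0.84, and 1.29 did not pass the test (adjusted p = 0.0826, 0.215, and 0.225). All 24 genes of the adipocyte list had positive differences, with a median of 0.95 that was 0.56 without CsA replicate 3. Of them 1, Cidea, was called (4.17%, against 1.82% of all genes). The same list stood at 1.88 without Ang-II, with 17 genes called, all higher, against 12.5% of all genes. Fatty acid oxidation (18 of 18 positive, median 0.62) and oxidative phosphorylation (27 of 28 positive, median 0.45) held 0 calls in limma and edgeR, although 10 and 18 genes had an unadjusted p under 0.05 and DESeq2 called 4 and 5. The part of fat tissue in the higher metabolic genes was not tested. Sod1, which removes superoxide, and Bnip3, a mitochondrial protein induced by hypoxia, were also highest in CsA replicate 3. Sod1 measured 94.8, 92.6, and 93.95 in WT and 116, 126, and 163 in CsA and Bnip3 59.1, 49.4, and 56.8 in WT and 76.7, 102, and 179 in CsA (log2 differences 0.51 and 1.02, adjusted p = 0.0341 and 0.0399). Sod1 and Bnip3 lost their calls without WT replicate 1 (adjusted p 0.0795 to 0.0809), and Sod1 and Bnip3 without WT replicate 2 (adjusted p 0.148 to 0.177). Sod1 and Bnip3 also lost their calls without WT replicate 3 (adjusted p 0.0519 to 0.0553), and Sod1 and Bnip3 without CsA replicate 2 (adjusted p 0.0718 to 0.0804). Sod1 and Bnip3 also lost their calls without CsA replicate 3 (adjusted p 0.114 to 0.129).

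**Figure D4:**
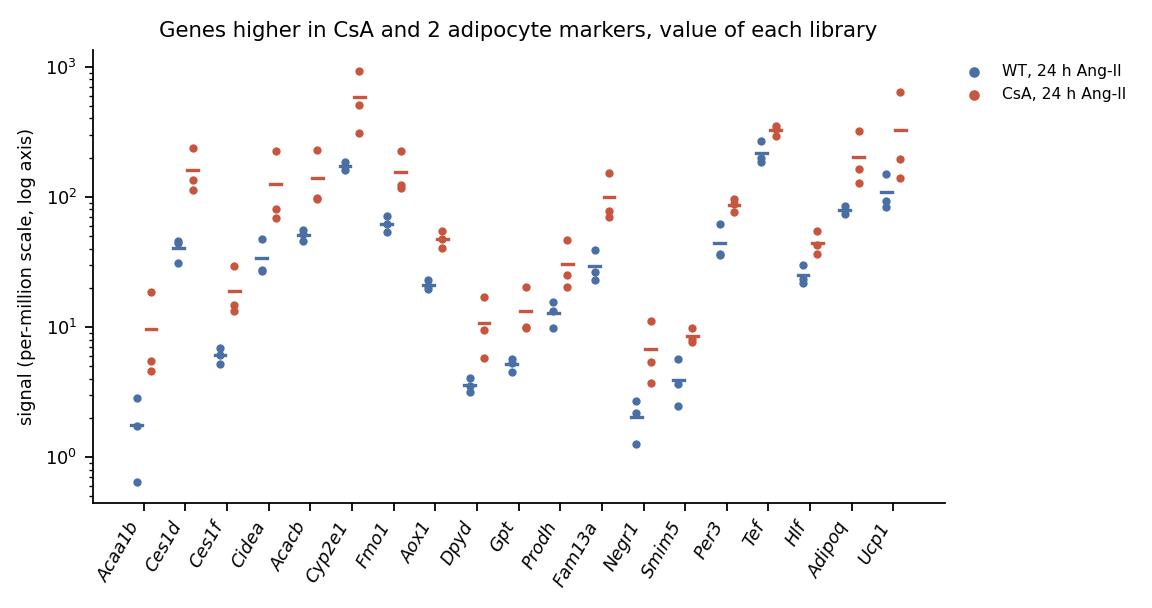
Signal of 17 genes that were higher in CsA and of the adipocyte markers Adipoq and Ucp1, on a log axis, with 1 point per library and a bar at the group mean. CsA replicate 3 lies far above the other CsA libraries for Cidea, Acacb, Cyp2e1, Adipoq, and Ucp1, but not for Aox1, Smim5, Per3, Tef, or Hlf.

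Some clock genes were higher without that pattern. Of 19 circadian genes, 3 were higher (15.8%, against 1.82% of all genes) and 0 lower. Differences were positive for 12 and negative for 7 of them, from -1.06 to 1.00, with a median of 0.24. Per3, a repressor of the clock, measured 36.2, 35.4, and 61.6 in WT and 96.2, 88.5, and 76.4 in CsA. Tef and Hlf, PAR-bZIP factors that carry the rhythm to metabolic genes, measured 199, 186, and 266 in WT and 349, 332, and 293 in CsA for Tef and 21.8, 23.5, and 30.1 in WT and 54.8, 42.4, and 36.1 in CsA for Hlf. CsA replicate 3 was the lowest CsA library in all 3, the groups did not overlap, and the log2 differences were 1.00, 0.59, and 0.80 (adjusted p = 0.00718, 0.0124, and 0.0145). Without Ang-II the same 3 genes were lower in CsA, by 0.62, 0.37, and 0.72. The hour at which the aortas were collected is not given in the sources used here, so its part was not tested. Hlf lost its call without WT replicate 1 (adjusted p = 0.0565), and Per3, Tef, and Hlf without WT replicate 2 (adjusted p 0.0585 to 0.0859). Of 14 genes of the glucocorticoid response, 2 were higher (14.3%, against 1.82% of all genes) and 2 lower (14.3%, against 3.15%). Fkbp5, a cochaperone of steroid receptors, measured 85.4, 92.9, and 147 in WT and 135, 162, and 251 in CsA, and Zbtb16 measured 48.5, 40.1, and 67.1 in WT and 65.7, 104, and 97.4 in CsA, both with 1 CsA library inside the WT range (log2 differences 0.74 and 0.78, adjusted p = 0.0459 and 0.0257). Sgk1, a kinase of salt handling, measured 209, 241, and 121 in WT and 102, 114, and 95.7 in CsA, and Errfi1, a feedback inhibitor of the epidermal growth factor receptor, 227, 285, and 192 in WT and 119.9, 139, and 150.1 in CsA (log2 differences -0.82 and -0.77, adjusted p = 0.0244 and 0.0333). The list had no common direction. Fkbp5, Zbtb16, Sgk1, and Errfi1 lost their calls without WT replicate 1 (adjusted p 0.0777 to 0.159), and Fkbp5, Zbtb16, Sgk1, and Errfi1 without WT replicate 2 (adjusted p 0.154 to 0.209). Sgk1 and Errfi1 also lost their calls without CsA replicate 1 (adjusted p 0.0569 to 0.0938), and Fkbp5, Zbtb16, Sgk1, and Errfi1 without CsA replicate 2 (adjusted p 0.0551 to 0.0957). Fkbp5, Zbtb16, and Sgk1 also lost their calls without CsA replicate 3 (adjusted p 0.0668 to 0.151).

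A few other called members completed the lists. Gstm1, a glutathione transferase, measured 162, 113, and 164 in WT and 218, 249, and 249 in CsA (log2 difference 0.72, adjusted p = 0.0108), and its relative Gstm7 measured 4.13, 3.14, and 5.04 in WT and 6.51, 8.46, and 10.4 in CsA (log2 difference 0.96, SE 0.16, adjusted p = 0.006). Both were clear of the WT range, though reads of this family can be shared between its members. Gstm7 held with each library left out, and Gstm1 lost its call without WT replicate 2 (adjusted p = 0.0614). Slc39a14, an importer of zinc and iron, was lower at 199, 219, and 154 in WT and 95.9, 110.0, and 127 in CsA (log2 difference -0.77, adjusted p = 0.00696), lost without WT replicate 2 (adjusted p = 0.0551). Among 24 late secreted genes, Prg4 and Igfbp5, a binding protein of insulin-like growth factors, were lower, and Angptl2 and Sfrp2, a modulator of Wnt signalling, were higher. The shares were 8.33% lower and 8.33% higher, against 3.15% and 1.82% of all genes. Igfbp5 measured 538, 837, and 477 in WT and 428, 288, and 389 in CsA. Angptl2 measured 84.5, 83.03, and 78.96 in WT and 116, 106, and 100.1 in CsA, and Sfrp2 measured 37.6, 42.9, and 34.9 in WT and 80.9, 69.3, and 44.8 in CsA. The groups did not overlap, and the log2 differences were -0.72, 0.38, and 0.71 (adjusted p = 0.0443, 0.0464, and 0.0289). Igfbp5, Angptl2, and Sfrp2 lost their calls without WT replicate 1 (adjusted p 0.0692 to 0.0893), and Igfbp5, Angptl2, and Sfrp2 without WT replicate 2 (adjusted p 0.083 to 0.226). Angptl2 and Sfrp2 also lost their calls without WT replicate 3 (adjusted p 0.0601 to 0.0839), and Angptl2 and Sfrp2 without CsA replicate 1 (adjusted p 0.0953 to 0.122). Igfbp5, Angptl2, and Sfrp2 also lost their calls without CsA replicate 2 (adjusted p 0.0942 to 0.146), and Igfbp5 and Angptl2 without CsA replicate 3 (adjusted p 0.053 to 0.0668).

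Lists of interferon-inducible, antigen presentation, and complement genes differed before Ang-II and held no limma calls at 24 h. In untreated aortas, 18 of 19 interferon-inducible GTPases, 23 of 26 interferon-inducible genes, 22 of 23 antigen presentation genes, and 11 of 15 complement genes were higher in CsA, against 12.5% of all genes, with median log2 differences of 2.80, 1.76, 1.42, and 1.13. At 24 h the medians were 0.10, 0.19, 0.31, and -0.28, and limma called 0 genes in each list, against 4.97% of all genes. At an unadjusted p under 0.05 there were 0, 2, 5, and 3 genes, while edgeR called 0, 0, 0, and 1, and DESeq2 0, 1, 1, and 1. Per test of the change itself, from untreated to 24 h, 11, 12, 8, and 12 genes of these lists changed, against 8.2% of all genes. The cytokine and NF-kB lists, with 7 of 22 and 9 of 16 genes higher without Ang-II, held the calls given above. The macrophage markers were 12 of 12 higher without Ang-II (median 1.29) and had a median of -0.32 at 24 h, with Mrc1 called lower. Their part in the change of the immune lists was not tested. The smooth muscle contractile genes, with none called at 24 h, had differed in the other direction. In untreated CsA aortas 18 of 20 were lower (median -0.68), against 10.1% of all genes. Other lists in which limma called 0 genes at 24 h were TGF-beta, BMP, and Id (4 of 24 at an unadjusted p under 0.05), cholesterol synthesis and uptake (5 of 21), p53 and growth arrest (7 of 17), endothelin, nitric oxide, and natriuretic peptides (2 of 16), STAT3 and acute phase (5 of 16), cytosolic ribosomal proteins (8 of 22), and T and B cell genes (1 of 9). In these 7 lists edgeR called 0 genes, and DESeq2 called 2, 1, 3, 0, 0, 6, and 0.

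The 24 h difference was set beside those without Ang-II and after 2 h. Without Ang-II, 3484 genes (22.6%) differed between CsA and WT, and after 2 h of Ang-II 208 genes (1.35%) did, 57 higher (0.37%) and 151 lower (0.981%). Of the 281 genes higher at 24 h, 66 (23.5%) were also called higher without Ang-II, against 12.5% of all genes, and 34 (12.1%) were called lower, against 10.1%. Of the 485 lower genes, 59 (12.2%) were called lower without Ang-II, against 10.1% of all genes, and 28 (5.77%) were called higher, against 12.5%. At 2 h, 205 of the 281 (73.0%) and 370 of the 485 (76.3%) had the same sign as at 24 h, against 62.4% of all genes, although only 5 and 30 passed the test there. Without Ang-II the shares were 55.5% and 64.9%, against 56.1% of all genes. Across genes, the 24 h difference had a Pearson correlation of 0.14 with the untreated one and of 0.345 with the 2 h one, both given as descriptions over 15399 genes that share library depths and composition. In direct tests, the difference between CsA and WT changed from untreated to 24 h for 1263 genes (8.2%), 616 upward (4%) and 647 downward (4.2%). Between 2 h and 24 h it changed for 7 genes (0.0455%) by limma, with 1879 at an unadjusted p under 0.05, and for 13 by edgeR and 270 by DESeq2.

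The medians of the ER stress response, cytokine, and clock lists crossed 0 between the stages, which was not particular to them. From untreated to 24 h, medians also went from 0.56 to -0.20 for NF-kB and from 1.12 to -0.21 for STAT3 and acute phase. The complement median went from 1.13 to -0.28. The ER list had a median of 0.21 without Ang-II and -0.42 at 24 h. Without Ang-II, 7 of its genes were higher, against 12.5% of all genes, and 0 lower, against 10.1%. The test of a change was passed by 14 of its 22 genes, against 8.2% of all genes. Hspa5 was 0.46 higher in untreated CsA aortas (adjusted p = 0.0244) and 0.81 lower at 24 h, a change of -1.27 (adjusted p = 0.00379). Pdia6 went from 0.49 to -0.70 and Sdf2l1 from 1.09 to -1.23. The cytokine list had medians of 0.68 without Ang-II, 0.036 at 2 h, and -0.62 at 24 h. In this list 9 of 22 genes changed, against 8.2% of all genes. Il33 was 0.93 higher without Ang-II and 1.40 lower at 24 h. The clock list had medians of -0.37 and 0.24, and 9 of 19 genes changed, against 8.2% of all genes, with Per3 going from -0.62 to 1.00.

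**Figure D5:**
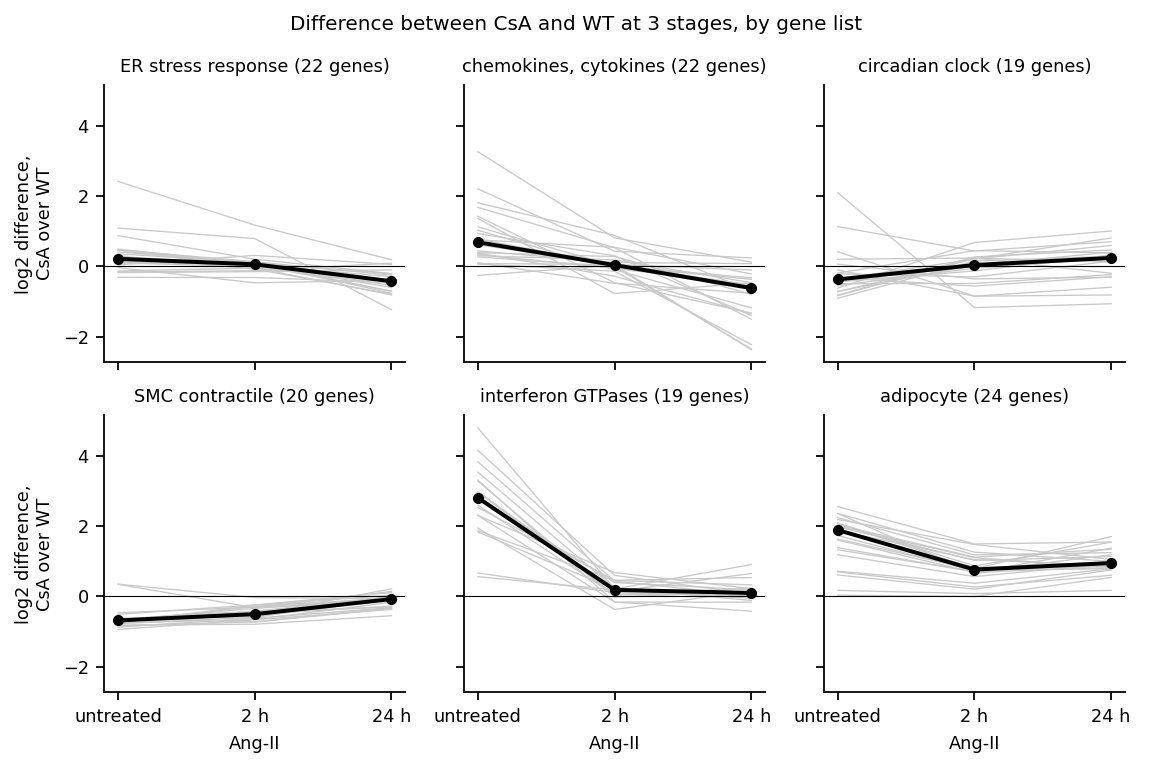
Log2 difference between CsA and WT in untreated aortas and after 2 and 24 h of Ang-II for 6 gene lists, with 1 gray line per gene and the list median in black. The ER stress and cytokine medians pass from above to below 0, the clock median from below to above, and the interferon GTPase median drops from 2.80 to near 0.

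Single genes with the smallest adjusted p for the change were not all members of the lists. Adam12, a membrane protease of remodelling tissue, was 2.53 higher in CsA without Ang-II and 1.01 lower at 24 h, and Serpina3n, an acute phase protease inhibitor, was 2.73 higher and 0.99 lower. At 24 h neither passed the test (adjusted p = 0.0832 and 0.102), whereas the changes of -3.54 and -3.72 did (adjusted p = 0.00358 for each). Upward changes with the same adjusted p were found for Ccdc42 (1.60), Syt15 (1.56), Lrrc17 (1.62), Optc (1.47), and Klhdc8b (0.91), which were all lower in CsA without Ang-II. At 24 h Syt15 was higher in CsA (log2 difference 0.82, SE 0.13, adjusted p = 0.00475), and this call held with each library left out. The 7 genes that changed between 2 h and 24 h were Alpl, Glipr2, and Wdr77, which moved downward (0.0195% of genes), and Gstm7, Gstm1, Rhbdd2, and Emd, which moved upward (0.026%). The count was 0 with quantile scaling, with the replicate number as a block, or without the intensity trend. Alpl (alkaline phosphatase of mineralizing tissue) measured 87.2, 133, and 79.995 in WT and 36.5, 38.9, and 59.03 in CsA at 24 h, and Glipr2 measured 38.7, 50.6, and 37.4 in WT and 18.7, 16.1, and 19.2 in CsA. Their differences at 24 h (log2 difference -1.15, SE 0.18, adjusted p = 0.00475; log2 difference -1.20, SE 0.14, adjusted p = 0.0021) held with each library left out and were 0.39 and 0.049 at 2 h.

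Set side by side, the responses to 24 h of Ang-II in each pretreatment, which share the 24 h libraries with the comparison above and are given as values only, ran as follows. In WT, 5074 genes (33%) differed from untreated aortas, 16.6% of all genes upward and 16.3% downward, and in CsA 1216 (7.9%) did, 4.64% upward and 3.26% downward. Timp1 stood 4.39 above the untreated level on the log2 scale in WT and 1.73 in CsA, Hmga1 3.64 and 1.21, and Tnc 1.91 and 1.44. For Hspa5 the values were 1.71 and 0.44, for Cd44 2.51 and 0.95, and for Lox 2.26 and 1.75. Ankrd1 stood at 2.44 in WT and -0.84 in CsA. Among the higher genes, Aox1 stood at -1.08 in WT and -0.07 in CsA, and Per3 at -1.78 and -0.15. The median over the 485 lower genes was 0.73 in WT and 0.27 in CsA, and over the 281 higher genes -0.61 and -0.18.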

How the data were processed

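The deposited signal values are the authors' normalized read counts. Per the methods, reads were aligned with Bowtie and assigned to transcripts with RSEM, and the submitters' processing notes give Bowtie 0.12.7, RSEM 1.16, and GRCm38. Which tool scaled the library sizes is not given in the sources used here. In each library 100% of the values converted to whole reads (tolerance 0.02) when read as reads plus 0.5 over a scaled library size, and these reads served for edgeR 4.0.16 and DESeq2 1.42.0 as alternatives.

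For the main test, log2(signal + 0.5) of all 15399 genes in the 18 libraries of the CsA experiment was fitted with limma 3.58.1 (R 4.3.3), as a means model of the 6 groups with trended variances, and p-values were adjusted over all genes after Benjamini and Hochberg. Fold changes on this scale understate changes of low genes. A call is an adjusted p under 0.05. Genes were named by a rule: the 15 largest called differences in each direction with no overlap and a mean signal of at least 5, the Cn genes, the called members of the lists, and the 10 smallest adjusted p-values for each change over time. The Mrc1 marker and 3 adipocyte markers were added after their values were seen. Of the genes named by the rule, 2 are not reported here. The members and lists were chosen with earlier results of these data known. Coordinates and biotypes come from GENCODE mouse release 21 (GRCm38). The test was also run on simulated reads, drawn independently per gene and without shifts in tissue composition. That run does not cover such shifts, and its outcome is not reported here. The labels call the libraries replicates but do not say how the mice were assigned to pools, so p-values measure the spread between pools.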

Additional observations from a re-analysis of the deposited data

Results flagged for a closer look

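The results in this group are those for which a direct limma test found that the difference between CsA and WT itself changed, either from untreated aortas or from 2 h of Ang-II to 24 h. From untreated to 24 h the difference changed for 1263 genes. Among the genes named in the text, 56 were in this set. The changes are in log2 units, and a negative value means that CsA moved down relative to WT.

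For signalling, cytokine, and chromatin genes the change was -1.28 for Rcan1, -3.24 for Arg1, -2.53 for Fosl1, -2.62 for Il11, -2.29 for Il6, -1.72 for Lif, -1.18 for Cxcl12, -2.33 for Il33, -1.91 for Dusp5, -0.49 for Spred1, -1.43 for Errfi1, and -2.42 for Hmga1. For genes of the cytoskeleton and of cell shape it was -3.28 for Ankrd1, -2.90 for Fgd3, -1.64 for Baiap2l1, and -0.71 for Tpm4. Matrix and secreted proteins changed by -2.66 for Timp1, -2.40 for Esm1, -3.99 for Prg4, -2.06 for Spp1, -1.29 for Loxl4, -2.60 for Has1, -1.56 for Cd44, 1.10 for Hyal1, -2.06 for Mmp3, 0.78 for Angptl2, 1.163 for Sfrp2, -0.97 for Igfbp5, -3.54 for Adam12, -3.72 for Serpina3n, and 1.47 for Optc. In the ER stress response the values were -1.27 for Hspa5, -0.71 for Hsp90b1, -0.67 for Pdia4, -1.19 for Pdia6, -0.55 for Canx, -0.54 for Dnajb11, -2.32 for Sdf2l1, -1.07 for Creld2, -1.12 for Manf, and -1.18 for Hyou1. The values were positive at 1.62 for Per3, 0.96 for Tef, 1.53 for Hlf, 1.00 for Aox1, 2.15 for Smim5, 0.83 for Gstm1, and 1.05 for Gstm7. The remaining changes were 0.91 for Klhdc8b, 1.60 for Ccdc42, 1.56 for Syt15, 1.62 for Lrrc17, -1.20 for Glipr2, -1.67 for Alpl, -0.43 for Wdr77, and -1.68 for Mrc1. Per3, Tef, Hlf, Smim5, Sfrp2, and Angptl2 were lower in CsA before Ang-II and higher at 24 h.

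Between 2 h and 24 h the difference changed for 7 genes, by 1.15 for Gstm1, -1.25 for Glipr2, -1.53 for Alpl, -0.78 for Wdr77, 0.80 for Emd, 0.98 for Rhbdd2, and 1.59 for Gstm7. The count fell to 0 under several other settings, which are given with the processing.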

How the results depend on the processing

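The 766 calls at 24 h (281 higher, 485 lower) stayed between 576 and 904 with quantile or median-ratio scaling, pseudocounts of 0.1 or 2, a mean of at least 5, protein-coding genes alone, edgeR, or no intensity trend. Quantile scaling called 837 genes, of which 703 were among the 766, and median-ratio scaling 766, of which 723 were. Fitting only the 6 libraries gave 0 calls, 0 higher and 0 lower, and has fewer samples to estimate the spread, whereas DESeq2 gave 1602, 634 higher and 968 lower. Leaving out 1 library gave 75 to 1115 calls, 19 to 402 higher and 56 to 713 lower.

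The change from untreated to 24 h had 2037 genes with DESeq2 and 469 to 2523 with 1 library left out (main 1263). The change from 2 h to 24 h (main 7) had 0 with quantile scaling, 39 with a pseudocount of 2, 33 with a mean of at least 5, 29 with protein-coding genes, 13 with edgeR, 270 with DESeq2, 0 without the intensity trend, and 0 to 109 with 1 library left out. The causes were not tested. Named genes near 0 turned sign: Rcan2 to -0.086 without CsA replicate 2 (range -0.086 to 0.62 with 1 library left out), and Ppp3ca to -0.0061 without WT replicate 2 and -0.017 without CsA replicate 3 (range -0.017 to 0.11).

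The replicate numbers did not pair the libraries: same-numbered WT and CsA libraries at 24 h had correlations of deviations of 0.104, -0.0689, and 0.117, and WT replicate 1 correlated best with CsA replicate 2 (0.18). With the replicate number as a block, 548 genes were called at 24 h and 0 for the change from 2 h to 24 h. With 3 pools per group, an exact permutation test of a single gene cannot go below p = 0.1. Genes at 1 or a few reads in a library, such as Cxcl5 and Il6 in CsA, carry the least precise values.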

Other observations

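Several gene families held calls at 24 h. They were picked after the values were seen and defined by gene symbol, some of their members are also in the lists above, and their counts are a description to be read beside 3.15% lower and 1.82% higher genes among all genes. Of the 8 subunits of the CCT chaperonin, which folds actin and tubulin, 7 were lower in CsA and 0 higher, with a median log2 difference of -0.52 at 24 h and -0.031 without Ang-II. Cct6a stood at -0.57 (adjusted p = 0.00826) and Cct3 at -0.61 (adjusted p = 0.0245). Of 8 core proteins of the small nucleolar RNA particles that modify ribosomal RNA, 5 were lower (Dkc1, Fbl, Gar1, Nop56, and Nop58), with a median of -0.53. Among 35 genes with Nop, Nol, Rrp, or Utp symbols, most of which act in ribosome assembly, 14 were lower and 0 higher (median -0.33), led by Rrp12 at -0.94 (adjusted p = 0.0107). In the nuclear transport family, 6 of 23 importins and exportins were lower (median -0.17), and 4 of 20 cytosolic aminoacyl-tRNA synthetases were (median -0.28). Without WT replicate 2, 0 CCT subunits, 0 nucleolar RNA particle proteins, 0 of the 35 Nop, Nol, Rrp, and Utp genes, 2 importins and exportins, and 0 synthetases were called, and without CsA replicate 2 the counts were 2, 2, 3, 4, and 0. Without WT replicate 1 they were 3, 4, 5, 3, and 2, without CsA replicate 1 they were 5, 3, 6, 4, and 1, and without CsA replicate 3 the CCT, nucleolar RNA particle, and importin counts were 4, 5, and 4. The cytosolic ribosomal proteins themselves held no call in limma and a median of -0.19.

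The interleukin-6 family had 4 lower members of 6, Clcf1 in addition to Il11, Il6, and Lif, which are also in the cytokine list, and 1 to 4 were called with 1 library left out. Among 5 ligands of the epidermal growth factor receptor, Ereg (-1.43, adjusted p = 0.0101) and Hbegf were lower, while Btc was higher (0.89, adjusted p = 0.0224). With 1 library left out, 1 or 2 of the ligands were called lower and 0 or 1 higher, with 0 higher without WT replicate 2, CsA replicate 1, or CsA replicate 2. Among detoxifying enzymes, the higher genes were 7 of 20 glutathione S-transferases (Gstk1, Gstm1, Gstm2, Gstm7, Gstt1, Gstt2, and Mgst3; median 0.63, and 0.35 without Ang-II) and 3 of 6 flavin monooxygenases (Fmo1, Fmo4, and Fmo5; median 0.69, and 0.12 without Ang-II), with 0 lower in either. Without WT replicate 2 these counts were 3 and 0. Of 18 genes of branched-chain amino acid breakdown, all were positive at 24 h (median 0.59) and 3 were called. Without Ang-II, 16 were called higher (median 0.94), against 12.5% of all genes. None of the 18 was called at 24 h without WT replicate 1, WT replicate 2, or CsA replicate 3. Striated muscle markers summed to 139 to 499 in WT and 82.8 to 117 in CsA, mesothelial markers to 31.0 to 259 and 41.2 to 68.1, and erythroid and platelet markers to 213 to 819 and 398 to 2494, with none of their genes called.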
